A study of Homo sapiens with 12 samples.

Results

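The comparison described here sets the hairpin named sh-B against the control hairpin in H1975, a cell line from a human lung adenocarcinoma with a mutant epidermal growth factor receptor. It compares 6 of the 12 libraries deposited for the series, 3 of each group. The other 6 carry the hairpins sh-A and sh-C, and they enter its test through the shared estimate of spread. The members of the comparison are all genes with enough counts, 15592 of the 20433 listed in any library. Every library, control included, came from cells that hold a tetracycline-inducible hairpin and received doxycycline at 0.5 µg/ml for 2 days. The control group is labelled WT and the sh-B group is labelled as a knockdown of KAT5. The labels do not say whether a group is 1 clone or a pool of transduced cells, nor whether its libraries are of separate cultures. The p-values below therefore rest on the spread from library to library, which may be technical. Libraries keep the numbers of their titles, 1 to 3 for the control and 3 to 5 for sh-B.

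KAT5, also called TIP60, is the lysine acetyltransferase of the NuA4/TIP60 complex, which acetylates histones H4 and H2A, exchanges H2A.Z and takes part in transcription and in the response to DNA breaks. Knockdown with a short hairpin RNA lowers a transcript through RNA interference. In lung adenocarcinoma with a mutant receptor, the receptor drives the ERK cascade, whose own feedback inhibitors (Sprouty proteins and dual-specificity phosphatases) are among its transcriptional targets. Tumour cells also keep a basal level of interferon-stimulated genes, which a complex that contains STAT2 and IRF9 switches on through a short promoter motif.

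Expected counts summed to between 15631504 and 24228536 in the control libraries and between 21896342 and 24780051 in the sh-B libraries. The library sh-B 3 stood somewhat apart, with a root mean square log2 distance to its group mates of 0.449, against 0.322 and 0.337 for sh-B 4 and 5. Levels below are scaled counts-per-million (CPM) values, given in the order of control 1, 2 and 3 and then of sh-B 3, 4 and 5, and ± marks the SD over 3 libraries. Differences are log2 values of sh-B minus control with their standard error (SE). A gene is said to have risen or fallen where edgeR's quasi-likelihood test gave an adjusted p below 0.05.

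KAT5 itself (NCBI gene ID 10524) was at 31.8, 27.6 and 27.4 CPM in the control and at 14.7, 13.4 and 12.7 CPM in sh-B. All 3 sh-B libraries lay below all 3 control libraries, and the mean was 47.0% of the control (log2 difference -1.09, SE 0.095, adjusted p = 1.1e-05 in edgeR). Of 20 measured genes of the complex and of the H2A.Z it exchanges, 3 fell, KAT5 included, and 1 rose. That share of 20% stood against 30.1% of all tested genes that were called. VPS72, a subunit that binds H2A.Z, fell from 56.9 ± 0.839 to 38.6 ± 3.25 CPM, and MRGBP fell from 55.8 to 46.8 CPM by a small amount, a call that was lost when any control library, sh-B 4 or sh-B 5 was left out (log2 difference -0.279 to -0.219). ACTL6A, an actin-like subunit, rose from 135 ± 8.10 to 200.4 ± 18.2 CPM. The scaffold genes TRRAP (166 and 164 CPM) and EP400 (109.8 and 118 CPM) did not pass the test.

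Across all genes, 4688 of 15592 passed the test, with 2344 higher (15%) and 2344 lower (15%) in sh-B. The split by size was far from even. Of 953 differences of at least 2-fold (6.11% of those tested), 777 genes were lower (4.98%) and 176 were higher (1.13%), and beyond a log2 difference of 3 there were 133 lower and 3 higher genes. Differences below 0.5 on the log2 scale ran the other way, with 1298 higher and 695 lower. Among the 2422 genes at or above 100 CPM in the control, 31 fell and 9 rose by at least 2-fold. The median log2 difference over all tested genes was 0.002. The groups did not overlap for 7601 genes (48.7%), of which 3746 (24.0%) were lower and 3855 (24.7%) higher in every sh-B library.

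The deepest falls included genes that were near the detection limit in sh-B. SOX2, a transcription factor of airway and stem cells, was at 4.01, 3.34 and 4.88 CPM in the control, and 1 count was left in the 3 sh-B libraries together, too few to give a fold. IRX2, an Iroquois homeobox factor, had 305 counts in the control libraries and 0 in sh-B, which makes it at least 108-fold lower against a floor of 3 counts over the group. By the same floor CDH5, the endothelial cadherin, was at least 60.4-fold lower, from 2.66 CPM. HPGD, which inactivates prostaglandins, was at least 7.999-fold lower, from only 0.352 CPM in the control. The floor covers counting error only, and the files list only values of at least 0.01 FPKM, so an unlisted gene was entered as 0.

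The rule for large changes asks for a call, no overlap of the libraries and at least 5 CPM in the higher group, and it named 15 falls. ALPPL2, a placental-type alkaline phosphatase, was at 8.93, 9.25 and 13.8 CPM in the control and 0.34, 0.04 and 0.13 CPM in sh-B (log2 difference -5.99, SE 0.77), and its near-identical neighbour ALPP, with which it can share reads, fell by 3.29. RAPGEF5, an exchange factor for Rap GTPases, went from 10.2, 10.5 and 9.63 CPM in the control to 0.19, 0.28 and 0.13 CPM in sh-B, 47.9-fold lower. CFI (complement factor I) fell by 4.90 on the log2 scale. By that rule none of the 15 had an sh-B library within the control range.

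STRA6, the cell-surface receptor for retinol-binding protein, was at 8.67, 6.36 and 8.87 CPM in the control and 0.19, 0.16 and 0.36 CPM in sh-B. IL24, a cytokine of the IL-10 family, fell from 18.0 ± 1.39 to 0.853 ± 0.0507 CPM. PLXNA2, a semaphorin receptor, fell by 4.16, TNIK, a kinase of the WNT pathway, by 4.08 and CACNA1H, a T-type calcium channel, by 3.97 on the log2 scale. HHIPL2 (log2 difference -3.97, SE 0.35) and CHIC1 (-3.92, SE 0.21) were also in the set, and its other members, GJA1, INPP4B, IRX3, IRX5 and MX2, are described below.

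**Figure D1:**
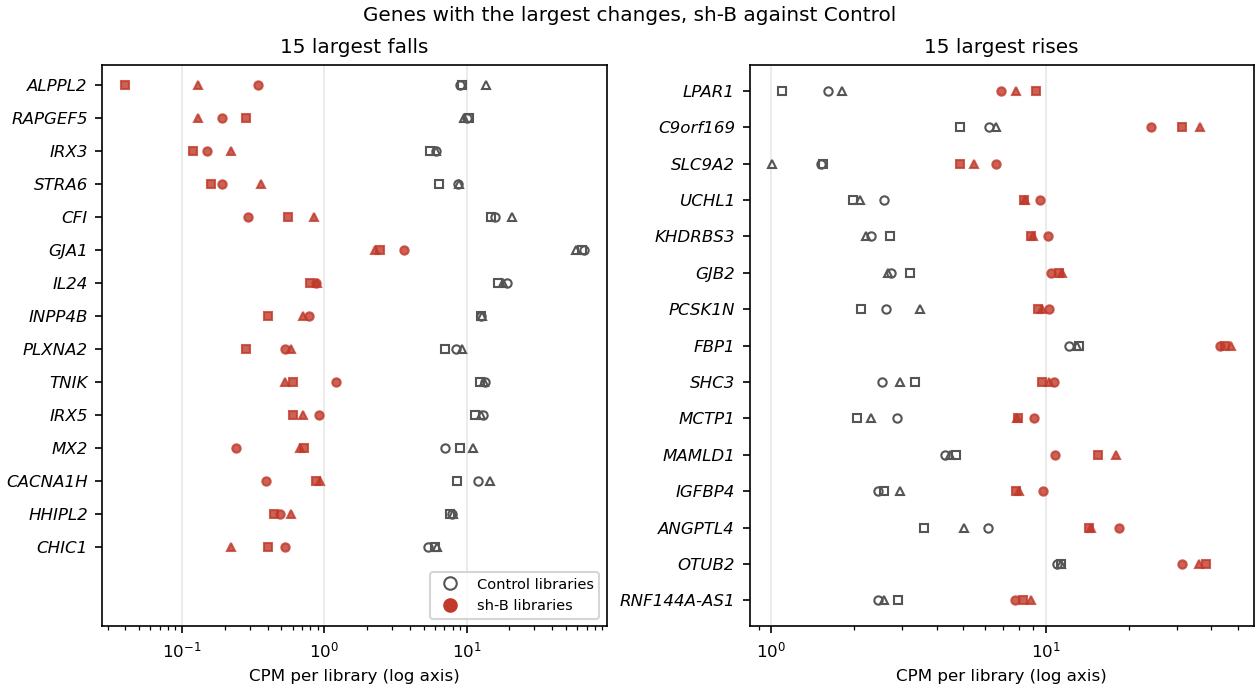
Levels of the 15 deepest falls (left) and the 15 largest rises (right) in each library, in CPM on a log axis, with open grey symbols for the 3 control libraries and filled red symbols for the 3 sh-B libraries. The 2 groups of symbols do not overlap for any of these genes, which the rule required, and the falls span wider gaps than the rises. A library at 0 CPM has no symbol on the log axis.

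The largest rises were smaller. C9orf169 was at 6.23, 4.88 and 6.61 CPM in the control and 24.2, 31.3 and 36.6 CPM in sh-B, 5.16-fold higher. LPAR1, a receptor for lysophosphatidic acid, rose 5.18-fold, from 1.51 ± 0.373 to 7.94 ± 1.18 CPM. SLC9A2, a sodium-proton exchanger, rose 4.17-fold. UCHL1, a ubiquitin hydrolase of neurons and neuroendocrine cells, rose 3.92-fold, from 2.22 ± 0.309 to 8.76 ± 0.690 CPM. Its call was lost without any 1 of the control libraries and without sh-B 3 (log2 difference 1.901 to 2.089). The test takes its spread from all 12 libraries, and UCHL1 was at 29.4 ± 29.6 CPM in sh-A. The same set held the adaptor SHC3, the proprotein convertase inhibitor PCSK1N, the RNA-binding protein KHDRBS3, the calcium-sensing MCTP1, the Notch coactivator MAMLD1, the deubiquitinase OTUB2 and IGFBP4, which binds insulin-like growth factors, with rises of 3.14 to 3.88-fold. RNF144A-AS1 rose 3.14-fold, but no step that marks strand is named in the labels, so its reads cannot be separated from those of its partner gene. FBP1, the gluconeogenic enzyme fructose-1,6-bisphosphatase, rose from 12.2, 13.2 and 12.9 CPM in the control to 43.0, 44.8 and 47.2 CPM in sh-B.

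In absolute terms the largest falls were the MTRNR2L genes, short nuclear copies of the mitochondrial 16S ribosomal RNA. MTRNR2L2 fell from 4016, 4288 and 4655 CPM in the control to 1600.3, 825 and 569 CPM in sh-B and MTRNR2L8 from 2136 to 537 CPM. Reads from the mitochondrial RNA can be assigned to such copies, so these values are uncertain as levels of the nuclear genes. TGFBI, a matrix protein, fell from 2285 ± 54.2 to 1080.0 ± 79.5 CPM, and HSPB1, a small heat shock protein, from 817 ± 127 to 398 ± 70.4 CPM. The actin-binding tropomyosin TPM4 also fell (1272 to 908 CPM). On the other side stood AHNAK, a giant scaffold protein, at 1025, 999 and 1018 CPM in the control and 1258, 2658 and 2272 CPM in sh-B, DYNC1H1, the heavy chain of dynein, at 759.7, 718 and 745 CPM in the control and 983, 1968 and 1782 CPM in sh-B, and EIF5, a translation initiation factor, which rose from 714 ± 68.9 to 1243 ± 155 CPM. AHNAK and DYNC1H1 both have very long transcripts, and sh-B 3 was the lowest of the 3 sh-B libraries for both. The difference of AHNAK did not pass with the neighbour offset described below (0.63). Among transcripts over 8 kb the median log2 difference from the control mean was -0.17 in sh-B 3, 0.18 in sh-B 4 and 0.13 in sh-B 5, and the part of transcript length in these values was not tested.

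Much of the moderate change followed position on the chromosome, a pattern looked for after the values were seen. In RNA values a difference in DNA copy number between the cells of the 2 groups and a change in transcription cannot be told apart. The 9895 genes with a control mean of at least 10 CPM were put in chromosome order and divided into 236 blocks of about 40 neighbouring genes. In 95 blocks the median log2 difference of sh-B lay beyond 0.15 in either direction, 38 lower and 57 higher, whereas 39 blocks did so in sh-C. Block medians of the single control libraries ranged from -0.15 to 0.11.

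Chromosome 20 was lower over its whole length. The median log2 difference of its 282 genes was -0.44, -0.49 and -0.45 in sh-B 3, 4 and 5, and 69.1% of them fell while 1.4% rose, against 15.4% and 19.6% of all 9895 genes. In sh-C the median of the same genes was 0.11. Chromosome 3 was higher throughout, with medians of 0.35, 0.27 and 0.27 in the 3 sh-B libraries, 49.9% of its 565 genes risen and a median of 0.04 in sh-C. The 3 sh-B libraries were close to each other on both chromosomes.

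Other chromosomes changed in part. On chromosome 1 the difference began about midway: 11 consecutive blocks of 24, from TTF2 to ZNF692, held 451 genes with a median of -0.36, of which 55.9% fell, and the sh-C median there was 0. Chromosome 7 had a higher run at its start, from FAM20C to OSBPL3 (median 0.24 over 83 genes), and a lower run from ABHD11 to WDR60 (median -0.34 over 287 genes). The run from LINC00999 to MTG1 on chromosome 10 had a median of 0.37, with 61.4% of 308 genes risen, and the run from BET1L to RHOD on chromosome 11 had a median of 0.36 over 328 genes. Lower runs also lay on chromosome 16, from POLR3K to USB1 (median -0.23), on chromosome 12, from GALNT6 to PIP4K2C (median -0.37), and at the start of chromosome 19, from WASH5P to SH3GL1 (median -0.31). The genes that end the runs are named as landmarks only.

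Runs of at least 2 adjacent blocks beyond 0.15 held 3575 of the 9895 genes (36.1%) and 1896 of their 3463 calls (54.8%). Of 1523 falls among these genes 826 lay in lower runs, and of 1940 rises 953 lay in higher runs. Because the runs were drawn from the same values, these counts describe the pattern and do not test it. Lower runs held 1576 of the 9895 genes and higher runs held 1999. Of the 218 falls of at least 2-fold, 82 lay in lower runs. To set each gene against its surroundings, the test was repeated with the median change of up to 20 neighbours on either side as an offset in each library, an alternative added after the values were seen. It called 3235 genes, 1356 higher and 1879 lower, and 2602 of the original calls remained in the same direction. When the library farthest from its mates in each hairpin group was left out (sh-C 1, sh-A 3 and sh-B 3, called the 3 libraries below), 7388 genes were called, and no list below had fewer rises or falls. Counts with the neighbour offset are given below where they change what a group of genes shows. Every list count below stands beside a background of 15% of all tested genes higher and 15% lower.

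**Figure D2:**
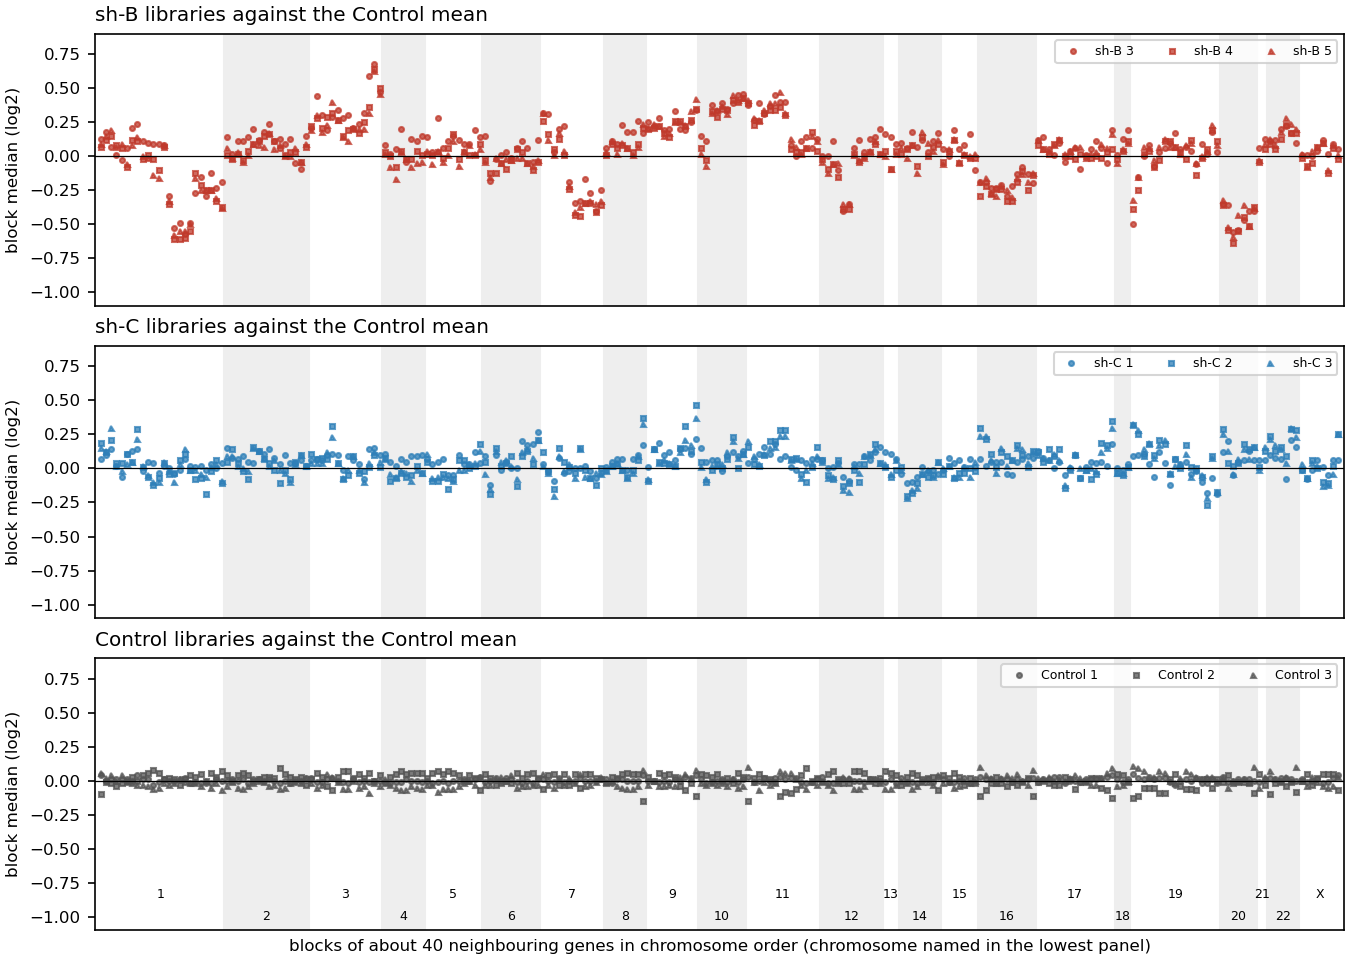
Median log2 difference from the control mean for 236 blocks of about 40 neighbouring genes, in chromosome order with alternating shading, for each library of sh-B (top), sh-C (middle) and the control (bottom). The symbols of the 3 sh-B libraries lie together below 0 along chromosome 20 and the later blocks of chromosomes 1 and 7 and above 0 along chromosomes 3 and 9, the last 7 of the 9 blocks of chromosome 10 and the first 8 blocks of chromosome 11, while the control libraries stay between -0.15 and 0.11.

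KAT5 lies on chromosome 11 at the start of a block of 41 genes whose median was 0.4, 0.3 and 0.32 in sh-B 3, 4 and 5 and of which 22 rose. With the neighbour offset, which also takes in genes before this block, KAT5 was lower by more than its plain difference, -1.50 instead of -1.09 on the log2 scale. The other called subunits of its complex followed their neighbours: with the offset the log2 difference was 0.04 for VPS72 on chromosome 1, 0.15 for MRGBP on chromosome 20 and 0.00 for ACTL6A on chromosome 3, and none of the 3 passed the test.

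Interferon-stimulated effectors, the antiviral proteins that interferon induces, fell together. Of 53 tested members 35 fell in edgeR's quasi-likelihood test, against 15% of all genes, and 0 rose (1 at an unadjusted p below 0.05, 1 in DESeq2 and 1 without the 3 libraries). The median log2 difference was -0.80, and with the neighbour offset 39 fell. Control 3 had the highest levels of these genes, and without it 23 fell. Their summed level was between 3382 and 3893 CPM in the control libraries and between 2081 and 2395 CPM in sh-B. Fewer cells that express these genes and less RNA per cell cannot be told apart in bulk RNA. The promoters of 4 members that fell are shown because they carry the interferon-stimulated response element, searched on either strand as GAAA, any 2 bases and GAAA again. Each line gives the 250 bases before the transcript start, 5′ to 3′ on the strand of the gene, from the RefSeq promoter table of GRCh38.p14 (the expression files use hg19), with the matches in capitals.
GBP1, chr1:89065209-89065458, minus strand: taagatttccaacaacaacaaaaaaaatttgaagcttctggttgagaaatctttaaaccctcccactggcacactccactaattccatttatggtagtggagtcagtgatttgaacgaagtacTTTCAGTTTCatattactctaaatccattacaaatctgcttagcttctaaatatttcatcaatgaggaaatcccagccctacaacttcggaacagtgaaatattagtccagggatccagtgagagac
IFI27, chr14:94110486-94110735, plus strand: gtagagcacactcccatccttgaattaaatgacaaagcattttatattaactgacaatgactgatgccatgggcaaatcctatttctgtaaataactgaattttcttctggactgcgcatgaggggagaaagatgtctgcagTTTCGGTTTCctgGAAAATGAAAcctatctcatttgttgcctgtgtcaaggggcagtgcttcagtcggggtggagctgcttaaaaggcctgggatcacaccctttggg
SAMD9, chr7:93117980-93118229, minus strand: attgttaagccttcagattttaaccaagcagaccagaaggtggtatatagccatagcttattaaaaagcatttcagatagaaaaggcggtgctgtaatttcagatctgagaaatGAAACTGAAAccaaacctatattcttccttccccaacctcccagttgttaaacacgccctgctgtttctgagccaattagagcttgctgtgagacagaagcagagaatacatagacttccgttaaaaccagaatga
HERC5, chr4:88456869-88457118, plus strand: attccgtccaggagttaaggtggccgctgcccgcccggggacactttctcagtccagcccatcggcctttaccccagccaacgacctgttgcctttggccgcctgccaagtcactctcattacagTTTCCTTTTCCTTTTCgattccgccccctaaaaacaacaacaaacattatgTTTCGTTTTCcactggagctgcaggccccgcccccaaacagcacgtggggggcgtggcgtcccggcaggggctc
IFI27 holds 2 matches side by side, and HERC5 holds 3, of which 2 overlap. Over windows from 250 bases before to 50 after the start, the element was found in 30 of the 42 effector genes present in the table (71.4%), against 996 of 27305 genes in all (3.6%). It stood in 18 of the 28 effectors that fell (64.3%) and in 12 of the 14 that were not called (85.7%). A match describes the letters only.

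GBP1, a guanylate-binding GTPase, was at 32.5, 33.8 and 35.5 CPM in the control and 11.3, 8.59 and 8.68 CPM in sh-B. IFI27 was at 29.1, 30.7 and 47.4 CPM in the control and 3.10, 2.66 and 2.67 CPM in sh-B, 12.7-fold lower (adjusted p = 4.9e-05, edgeR). SAMD9, a translation-blocking antiviral factor, was at 296, 346 and 323 CPM in the control and 95.8, 107 and 98.1 CPM in sh-B. In all 3 the sh-B libraries lay below the control range by a wide gap. MX2, a dynamin-like GTPase against retroviruses, fell from 9.04 ± 2.02 to 0.542 ± 0.261 CPM and EPSTI1 from 6.92 ± 1.70 to 1.14 ± 0.356 CPM. HERC5, the ligase for ISG15, fell by 1.36 (SE 0.17) and APOL1, a trypanolytic apolipoprotein, by 1.25 (SE 0.13) on the log2 scale.

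Transcripts of IRF9 and STAT2, subunits of the complex named above, were lower too, and protein was not measured. IRF9, the DNA-binding subunit, was at 36.6, 37.2 and 48.9 CPM in the control and 7.13, 11.1 and 11.4 CPM in sh-B, 4.14-fold lower, with sh-B 3 the lowest. STAT2 fell from 43.7 ± 6.28 to 21.8 ± 1.90 CPM. IRF1 fell as well (log2 difference -0.58, SE 0.088), while IFNGR2, a chain of the interferon-gamma receptor, rose from 22.4 ± 1.38 to 34.0 ± 1.87 CPM. In this list of signalling genes 7 of 22 fell (4 without control 1 or sh-B 4) and 1 rose, with a median of -0.19, or 6 and 2 with the offset. The share called, 36.4%, was near the 30.1% of all tested genes.

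Among 19 tested sensors of foreign nucleic acid 8 fell, with a median log2 difference of -0.40, and 0 rose in edgeR, at an unadjusted p below 0.05 and in DESeq2 alike, while 2 rose without the 3 libraries. With the neighbour offset 6 fell, with a median of -0.17. AIM2, which assembles an inflammasome on DNA, was at 35.0, 35.9 and 31.2 CPM in the control and 5.19, 6.01 and 5.34 CPM in sh-B. IFI16, a related DNA sensor and one of the most abundant genes of the list, was at 249.8, 297 and 296 CPM in the control and 81.6, 77.5 and 78.3 CPM in sh-B. Both lie in the lower run of chromosome 1, and their log2 differences of -2.62 and -1.83 became -1.995 and -1.22 with the neighbour offset. The RNA helicase genes DDX60 and DDX60L, which lie next to each other on chromosome 4, fell by 1.81 and 0.97. MAVS on chromosome 20, the adaptor of RNA sensing, fell from 253 to 177 CPM but with the offset its difference was -0.12 and did not pass.

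Antigen presentation by MHC class I, which displays peptides to T cells, fell in 13 of 22 tested genes (7 without control 3, 8 without sh-B 4), with a median of -0.41, and no member rose by edgeR, by DESeq2 or at an unadjusted p below 0.05. HLA-B was at 168.7, 146 and 179 CPM in the control and 78.9, 80.5 and 82.5 CPM in sh-B, and HLA-C was at 140.1, 121 and 142 CPM in the control and 74.8, 78.8 and 84.2 CPM in sh-B. Every sh-B library lay below the control range for both, although near-identical HLA genes can share reads and single values are uncertain. HLA-E fell by 0.42, the peptide transporter TAP1 by 0.63, the immunoproteasome subunit PSMB9 by 1.04 and the proteasome activator PSME1 by 0.49 on the log2 scale. The chaperone CALR, the most abundant member, was at 1003 and 894 CPM and did not pass. With the offset 11 of 22 fell.

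**Figure D3:**
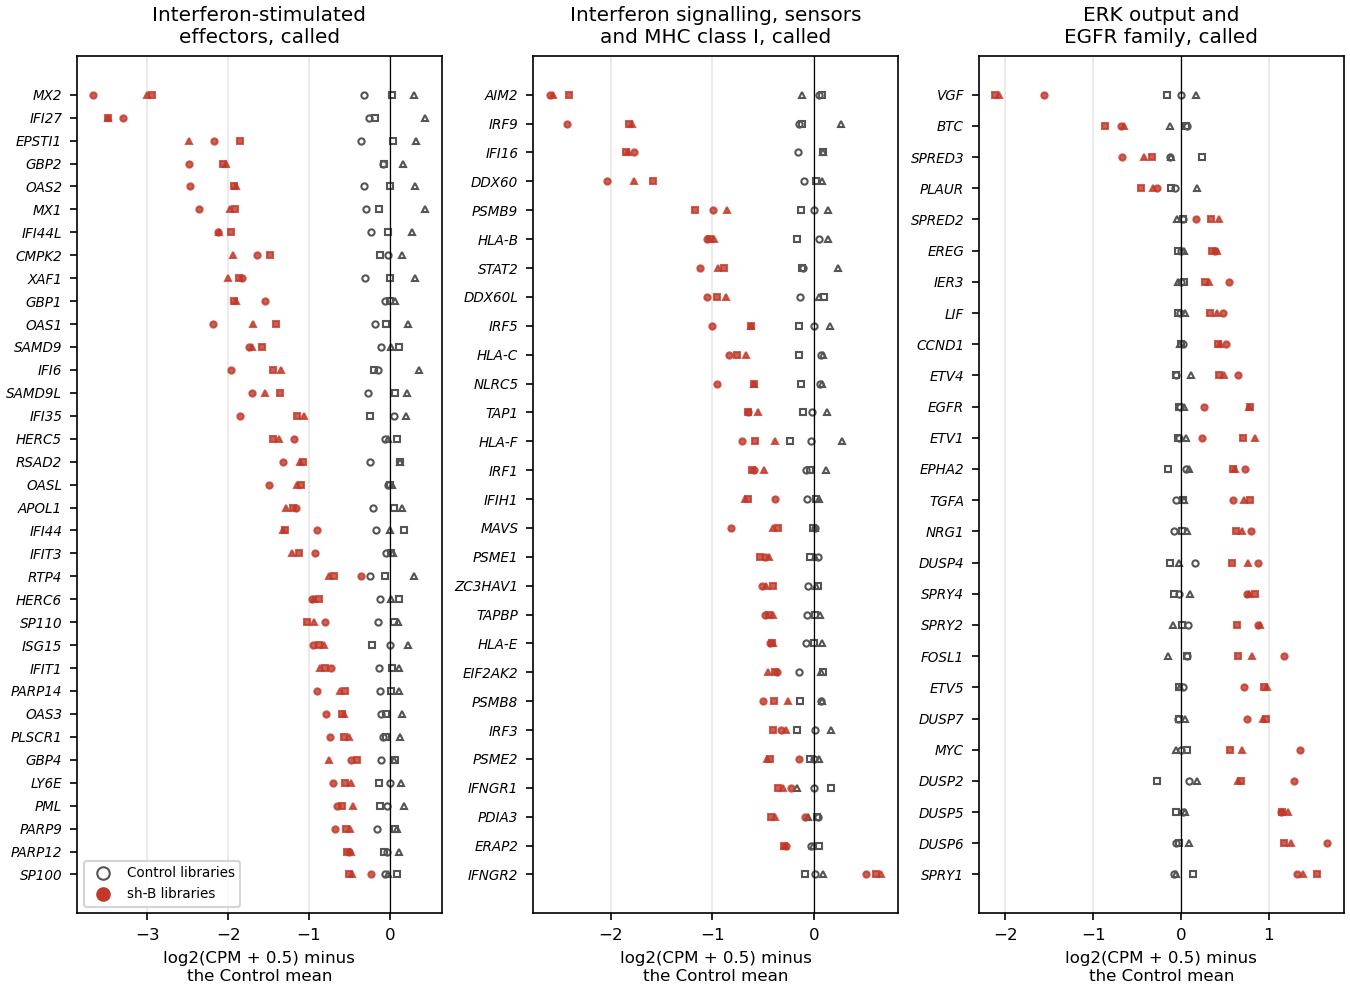
Each library's log2(CPM + 0.5) minus the control mean for called genes of the interferon-stimulated effectors (left), of interferon signalling, sensors and MHC class I (middle) and of ERK output and the EGFR family (right), with open grey symbols for the control and filled red symbols for sh-B. All called effectors lie below 0 in the 3 sh-B libraries, IFNGR2 is the single gene above 0 among the signalling, sensor and MHC genes drawn, and most ERK and EGFR family genes lie above 0.

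Transcripts of ERK feedback and output genes more often rose, and ERK activity itself was not measured. Of 32 tested feedback and output genes 18 rose and 3 fell (1 without sh-B 5), against 15% each way among all genes, with a median log2 difference of 0.50, and 15 rose with the neighbour offset. SPRY1, a Sprouty inhibitor of receptor signalling, was at 5.66, 6.68 and 5.8 CPM in the control and 15.8, 18.6 and 16.6 CPM in sh-B. DUSP6, the phosphatase specific for ERK, was at 3.44, 3.53 and 3.87 CPM in the control and 12.5, 8.79 and 9.26 CPM in sh-B, and DUSP5, its nuclear relative, at 51.3, 48.5 and 52.1 CPM in the control and 112, 113 and 119 CPM in sh-B. The groups did not overlap for any of the 3.

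SPRY4 rose from 12.1 ± 0.779 to 21.2 ± 0.746 CPM, DUSP7 from 17.5 ± 0.555 to 32.7 ± 2.50 CPM and the ETS factor ETV5 from 29.2 ± 0.481 to 54.4 ± 5.37 CPM. ETV5 and DUSP7 lie on chromosome 3, and with the offset ETV5 (0.32) no longer passed while DUSP7 (0.56) did. MYC rose from 357, 374 and 343 CPM in the control to 914, 526 and 579 CPM in sh-B, highest in sh-B 3, and its call was lost without sh-B 3 (log2 difference 0.62) and without control 3 (0.87). CCND1 (cyclin D1) rose from 261 to 359 CPM. VGF, a neuropeptide precursor, fell from 42.5 ± 4.89 to 11.02 ± 2.60 CPM.

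Of the EGFR family 4 of 12 tested genes rose and 1 fell. EGFR was at 225, 223 and 232 CPM in the control and 271, 391.7 and 386 CPM in sh-B, 1.54-fold higher (SE 0.15 on the log2 scale), and all 3 sh-B libraries were above the control range, sh-B 3 the least. Its ligand TGFA rose from 32.0 ± 1.15 to 52.5 ± 3.52 CPM, the ERBB3 and ERBB4 ligand NRG1 from 18.8 ± 0.951 to 31.0 ± 1.85 CPM and epiregulin, EREG, from 18.5 to 24.2 CPM. Betacellulin, BTC, fell from 0.847 to 0.311 CPM, but not without sh-B 4 (log2 difference -1.27). ERBB2 (121 and 118 CPM), ERBB3 (118 and 92.8), AREG (33.9 and 39.2) and HBEGF (11.9 and 11.1) did not pass, nor did EPGN, EGF or NRG4, each under 4 CPM. ERBB4 had no counts in either group.

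Other receptor tyrosine kinases split, with 6 of 27 risen and 6 fallen. AXL, a receptor linked to resistance to EGFR inhibitors, was at 28.0, 26.6 and 23.8 CPM in the control and 12.4, 10.02 and 8.59 CPM in sh-B, lower in every library. FGFR3 fell by 1.38, NTRK2 by 2.10 and PTK7 by 0.87 on the log2 scale, while ROR1 rose from 19.1 to 32.0 CPM and the ligand PDGFB from 12.7 to 21.4 CPM. MET, the most abundant of them, was at 558, 579 and 550.2 CPM in the control and 567, 679 and 675 CPM in sh-B and did not pass, but it lies within the lower run of chromosome 7 and rose with the neighbour offset (log2 difference 0.51), as it did without sh-B 3 (0.267).

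Downstream of the receptors, regulators of phosphoinositides and of Ras and Rap GTPases held several of the deepest falls. INPP4B, a phosphatase that removes the 4-phosphate of PI(3,4)P2, was at 12.6, 12.7 and 12.8 CPM in the control and 0.78, 0.4 and 0.71 CPM in sh-B. The phospholipases PLCB4 and PLCE1 fell by 4.78 and 1.89 and the Rap GTPase activator SIPA1L2 by 1.22 on the log2 scale. PLCB4 did not meet the rule for large changes, which asks for no overlap and at least 5 CPM in the higher group. RASAL1, a Ras GTPase activator, rose from 0.527 ± 0.0669 to 2.44 ± 0.962 CPM. In the whole list 8 of 39 rose (4 without control 2, 5 without control 1 or control 3) and 8 fell (5 without control 1, control 3, sh-B 3 or sh-B 4), and with the neighbour offset 2 rose and 7 fell.

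Connexins, the subunits of gap junctions, moved in both directions. GJA1 (connexin 43) was at 66.7, 65.2 and 58.9 CPM in the control and 3.64, 2.47 and 2.27 CPM in sh-B, 22.9-fold lower (log2 difference -4.52, SE 0.16, adjusted p = 1e-08, edgeR). GJB2 (connexin 26) was at 2.74, 3.21 and 2.66 CPM in the control and 10.5, 11.2 and 11.5 CPM in sh-B, 3.86-fold higher. GJA3 rose from 1.71 to 4.58 CPM and PANX1, a pannexin channel, from 35.4 to 43.0 CPM, the last by a small amount that was not called without control 1, control 3 or sh-B 5 (log2 difference 0.245 to 0.264). GJC1 (80.6 and 91.6 CPM) and PANX2 (5.28 and 5.88 CPM) did not pass, though GJC1 did with DESeq2 and without sh-B 3 (log2 difference 0.214). In all, 4 of the 8 tested genes rose and 1 fell, also with the neighbour offset. TJP1, the tight junction scaffold that binds connexins, was at 349 and 308 CPM and did not pass.

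Genes of epithelial identity changed in both directions, with 9 of 43 risen (5 without control 3) and 11 fallen, or 5 and 7 with the neighbour offset. CDH1 (E-cadherin) was at 708, 708 and 722 CPM in the control and 554, 663 and 688 CPM in sh-B and did not pass. RAB25, an epithelial GTPase of vesicle recycling, fell from 1.10 ± 0.373 to 0.0575 ± 0.0192 CPM and PRSS8, the serine protease prostasin, from 7.10 ± 1.03 to 0.941 ± 0.276 CPM. Cingulin, CGN, fell from 102 to 50.3 CPM. PKP2, a desmosomal plakophilin, rose from 17.5, 16.8 and 17.2 CPM in the control to 38.2, 40.3 and 37.4 CPM in sh-B. Of 11 keratins 4 fell and 0 rose (0 also at an unadjusted p below 0.05 and in DESeq2), and with the offset 2 fell. KRT18, a keratin of simple epithelia, fell from 751 to 532 CPM in a lower run of chromosome 12 and did not pass with the offset (-0.22). KRT8, its partner, fell from 1001 to 684 CPM, but not with the offset (-0.30) or without control 1, control 3 or sh-B 3 (log2 difference -0.551 to -0.421). KRT7, the most abundant keratin, was at 1394 and 1278 CPM and did not pass. KRT81 and KRT86, hair keratins so alike that reads can be split between them, fell by 3.06 and 2.37.

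Of 37 mesenchymal and matrix genes 12 fell and 4 rose, with a median log2 difference of -0.64, or 12 and 2 with the offset. VIM, the intermediate filament vimentin, was at 275, 263 and 252 CPM in the control and 1095, 543 and 569.9 CPM in sh-B, 2.79-fold higher and highest in sh-B 3. FN1 (fibronectin) was at 336, 329 and 333 CPM in the control and 86.9, 104 and 109.9 CPM in sh-B. Neither gene had overlapping groups, and they moved in opposite directions.

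The collagen genes COL5A1 and COL6A2 fell, the first from 72.9 ± 7.14 to 18.4 ± 7.51 CPM and the second from 19.0 ± 1.83 to 3.65 ± 0.898 CPM. MYL9, a regulatory light chain of contractile myosin, fell from 64.8 ± 3.22 to 8.84 ± 1.67 CPM and the actin-binding CALD1 from 315 ± 21.3 to 147 ± 3.89 CPM. Of 33 matrix proteases and inhibitors 9 fell and 2 rose (1 without control 1, control 2, sh-B 3 or sh-B 5), or 9 and 1 with the offset. MMP13, a collagenase, was at 81.7, 76.0 and 86.7 CPM in the control and 7.81, 6.52 and 6.68 CPM in sh-B, and MMP14, a membrane-bound protease, fell from 24.8 ± 2.65 to 5.63 ± 4.75 CPM. ADAM19, CTSK and MMP24 fell by 2.56, 2.33 and 1.18, while PLAU, the urokinase-type plasminogen activator, rose from 262 ± 6.63 to 484 ± 53.2 CPM. Among 18 integrins 2 rose and 4 fell (33.3% called, against 30.1% of all tested genes). ITGA6, the laminin-binding chain, rose from 284 ± 13.7 to 526 ± 38.4 CPM and ITGB5 from 83.7 to 122 CPM. ITGB3, of the vitronectin receptor, fell from 9.49 ± 0.245 to 2.85 ± 0.469 CPM.

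In the TGF-beta and BMP pathway 4 of 41 genes rose (7 without sh-B 3) and 11 fell, or 1 and 10 with the offset. The share called was 36.6%, against 30.1% of all tested genes. The ligand TGFB1 fell from 21.2 ± 1.25 to 10.3 ± 1.36 CPM, BMP2 from 30.1 ± 0.763 to 16.6 ± 2.65 CPM and INHBB, an activin subunit, from 0.961 ± 0.221 to 0.104 ± 0.0979 CPM. ID2 and ID4, inhibitors of basic helix-loop-helix factors that BMP signalling induces, fell by 1.12 and 0.84. TGFBR2, the type II receptor, rose from 65.9 to 105 CPM but on chromosome 3 did not pass with the offset (0.34). SMAD3 (218 and 240.3 CPM) did not pass.

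Developmental signalling pathways showed single large changes within mixed lists. Of 34 WNT genes 8 rose (5 without control 1, control 3, sh-B 4 or sh-B 5) and 4 fell, or 5 and 4 with the offset. WNT7B rose from 58.6 ± 4.23 to 115 ± 7.999 CPM and the antagonist DKK1 from 58.0 ± 1.15 to 130.1 ± 30.9 CPM, whereas the feedback inhibitor NKD1 fell from 3.85 ± 0.336 to 1.13 ± 0.368 CPM and the receptor FZD1 by 1.27. Of 23 Notch genes 5 fell and 2 rose (0 without control 1, control 2, control 3, sh-B 4 or sh-B 5, 1 without sh-B 3), or 7 and 1 with the offset. The targets HEY1 and HEYL fell by 1.46 and 1.15 and the ligase gene DTX3 by 1.51. Of 30 genes of the Hippo pathway and its YAP/TEAD targets 8 rose (5 without control 3) and 7 fell, or 4 and 8 with the offset. AMOTL1, an angiomotin that holds YAP in the cytoplasm, was at 41.8, 41.5 and 44.1 CPM in the control and 4.75, 8.71 and 7.88 CPM in sh-B. F3 (tissue factor) rose from 58.2 ± 1.97 to 105 ± 27.9 CPM and FJX1 from 13.8 ± 0.324 to 31.3 ± 3.54 CPM.

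Of 50 tested homeobox transcription factors 12 fell and 0 rose in edgeR. The share called was thus 24.0%, against 30.1% of all tested genes (15% lower and 15% higher). At an unadjusted p below 0.05 4 were higher, as were 2 in DESeq2 and 4 without the 3 libraries. IRX5 was at 13.0, 11.4 and 12.5 CPM in the control and 0.92, 0.6 and 0.71 CPM in sh-B, and its neighbour IRX3 was at 6.10, 5.52 and 6.13 CPM in the control and 0.15, 0.12 and 0.22 CPM in sh-B. With IRX2, given above, 3 Iroquois genes from chromosomes 5 and 16 had almost no transcript in sh-B. MEIS2, a cofactor of HOX proteins, fell by 1.04 and HOXC4 by 1.58. SIX4, the most abundant, was at 65.5 and 74.5 CPM and did not pass, but it rose without the 3 libraries (log2 difference 0.325). In the list of lung lineage and SOX factors 8 of 19 fell and 4 rose, or 8 and 2 with the offset. SOX4 fell from 40.2 ± 2.65 to 16.3 ± 3.28 CPM and NAPSA, the alveolar protease napsin A, from 0.991 to 0.189 CPM, while ABCA3, the surfactant lipid transporter, rose from 13.4 ± 1.58 to 24.8 ± 2.46 CPM.

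Genes of retinoid handling fell beside STRA6, with 5 of 19 lower and 2 higher (1 without control 1, control 2, sh-B 4 or sh-B 5), or 6 and 0 with the offset. CRABP2, which carries retinoic acid to its receptors, was at 264, 241 and 261 CPM in the control and 53.9, 71.8 and 73.7 CPM in sh-B. CYP26B1, which degrades retinoic acid, fell by 1.43, and TGM2 and RARRES3, known to be induced by it, by 1.73 and 1.84 on the log2 scale. CYP1B1, an oxidase under control of the aryl hydrocarbon receptor, was at 257, 255 and 242 CPM in the control and 87.0, 84.6 and 86.3 CPM in sh-B, lower in every sh-B library. The repressor of that receptor, AHRR, fell from 6.09 to 3.25 CPM. Its partner ARNT, in the lower run of chromosome 1, fell from 42.9 to 25.6 CPM but not with the offset (-0.16). The list of this receptor and the CYP1 genes was mixed, with 3 of 8 tested genes risen and 4 fallen, or 1 and 3 with the offset.

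Secreted immune factors changed in both directions, with 6 of 26 cytokines and chemokines risen (3 without control 1) and 6 fallen. CSF2 (GM-CSF) rose from 0.358 ± 0.0941 to 2.22 ± 1.44 CPM and LIF, of the IL-6 family, from 41.2 ± 1.22 to 54.7 ± 2.90 CPM. IL15, a growth factor of natural killer cells, fell from 48.9 ± 1.94 to 26.3 ± 6.23 CPM, CCL26 from 2.53 to 0.378 CPM and CCL28 from 7.85 to 4.76 CPM. Of 26 NF-kB factors and feedback genes 8 rose (5 without control 2) and 6 fell (2 without control 3, 3 without sh-B 4), but 3 and 5 with the offset. RELA on chromosome 11 (log2 difference 0.38, with the offset -0.03) and NFKB2 on chromosome 10 (0.58, with the offset 0.12) followed their neighbours. BIRC3, an inhibitor of apoptosis that NF-kB induces, rose from 2.65 ± 0.236 to 6.31 ± 1.72 CPM, and CD40 fell from 7.82 ± 0.515 to 2.89 ± 0.534 CPM.

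Prostaglandin enzymes and receptors included a fall of PTGES, the prostaglandin E synthase, from 161 ± 6.80 to 79.6 ± 1.91 CPM and a rise of the receptor PTGER4 from 2.19 ± 0.458 to 5.10 ± 0.733 CPM, within 4 rises and 6 falls among 20. In complement, 4 of 16 genes fell (2 without control 3) and 1 rose. C3 fell from 4.11 ± 0.787 to 1.70 ± 0.832 CPM, but not without control 3 (log2 difference -1.19) or sh-B 4 (-1.01). CD59, which blocks the membrane attack complex, rose from 207 ± 3.20 to 339 ± 47.7 CPM. Of 18 immune checkpoint ligands 4 rose (1 without control 2, control 3 or sh-B 4, 2 without control 1 or sh-B 5) and 2 fell (1 without control 1, control 3, sh-B 4 or sh-B 5), or 1 and 3 with the offset. VTCN1 (B7-H4) fell from 3.66 ± 0.153 to 0.0859 ± 0.0892 CPM. CD274 (PD-L1) was at 39.1, 42.6 and 41.3 CPM in the control and 62.5, 45.3 and 44.7 CPM in sh-B and did not pass.

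Many genes of amino acid supply rose. ATF4 is the transcription factor that raises amino acid synthesis, import and tRNA charging when amino acids or the endoplasmic reticulum are under stress. Of 36 tested genes of its response 18 rose and 1 fell (2 without sh-B 3), with a median log2 difference of 0.48, and 17 rose with the neighbour offset. PSAT1, of serine synthesis, was at 110.3, 114 and 100.01 CPM in the control and 344, 262 and 274 CPM in sh-B, and SLC7A11, the cystine importer, at 40.3, 39.4 and 35.5 CPM in the control and 80.8, 102 and 102 CPM in sh-B. For both, every sh-B library was above the control range. PYCR1, of proline synthesis, rose from 42.6 ± 3.33 to 92.6 ± 0.130 CPM, ALDH18A1 from 99.8 ± 3.78 to 159 ± 4.32 CPM and the amino acid carriers SLC7A5 and SLC1A4 from 469.9 to 735 CPM and from 13.6 to 23.2 CPM.

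Of 20 cytosolic aminoacyl-tRNA synthetases 9 rose and 0 fell in edgeR, while 1 fell at an unadjusted p below 0.05 and 0 in DESeq2. With 1 library left out fewer rose (3 without control 3, 4 without control 1 or control 2, 5 without sh-B 3). CARS rose from 105 ± 5.29 to 167 ± 9.87 CPM and YARS from 206 ± 4.07 to 285 ± 32.2 CPM, and EPRS, the most abundant, was at 531 and 554 CPM and did not pass. In the unfolded protein response, a related stress pathway of the endoplasmic reticulum, 3 of 22 genes rose (1 without control 1, control 2, sh-B 4 or sh-B 5) and 4 fell, or 0 and 4 with the offset. PDIA4 fell from 379 ± 16.1 to 244 ± 19.1 CPM, and HSP90B1 (1076 and 829 CPM) did not pass, but did with the offset (-0.36) and without sh-B 3 (-0.516).

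In metabolic lists many calls followed the position on the chromosome. Of 45 oxidative phosphorylation subunits 11 rose (5 without control 3, 6 without control 2 or sh-B 5, 7 without sh-B 3) and 6 fell, and with the neighbour offset 2 rose and 3 fell. The log2 difference of SDHC, in the lower run of chromosome 1, went from -0.72 to -0.18 with the offset and that of UQCRC1 on chromosome 3 from 0.43 to 0.19, and neither then passed. Of 39 hypoxia and glycolysis genes 10 rose (6 without control 2, control 3, sh-B 4 or sh-B 5) and 7 fell (4 without control 3), or 4 and 6 with the offset. LDHA on chromosome 11 rose from 2628 to 3465 CPM but had an offset difference of 0.10, which did not pass. CA9, a carbonic anhydrase of hypoxic cells, fell from 0.987 ± 0.257 to 0.0430 ± 0.0446 CPM, the glucose carrier SLC2A3 from 38.8 ± 2.42 to 11.8 ± 2.08 CPM and ALDOC from 20.4 ± 2.86 to 6.56 ± 0.457 CPM, whereas ANGPTL4, an inhibitor of lipoprotein lipase, rose from 4.93 ± 1.28 to 15.8 ± 2.37 CPM.

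Of 28 antioxidant genes of the NRF2 pathway 3 rose and 7 fell (4 without sh-B 4), or 2 and 10 with the offset. HMOX1 (heme oxygenase) was at 89.0, 80.5 and 79.0 CPM in the control and 40.6, 30.2 and 31.7 CPM in sh-B. NQO1 fell from 312 ± 3.17 to 225 ± 9.28 CPM and the transporter ABCC2 from 7.98 ± 0.509 to 1.76 ± 0.123 CPM. In cholesterol synthesis 3 of 30 rose and 3 fell (5 without sh-B 3), or 3 and 1 with the offset. FDPS on chromosome 1 fell from 115 to 70.6 CPM, and its offset difference of -0.19 did not pass.

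Of 12 genes of the MYC network 4 rose and 2 fell (1 without control 1, control 2, control 3, sh-B 3 or sh-B 4), among them the glucose-sensing MLXIPL, which fell from 35.3 ± 6.02 to 12.1 ± 1.93 CPM. Of 40 nucleolar and ribosome biogenesis genes 12 rose (5 without control 2 or control 3, 6 without control 1 or sh-B 3) and 1 fell (0 without control 1, control 2, sh-B 4 or sh-B 5), with list medians of 0.48, 0.05 and 0.07 in sh-B 3, 4 and 5, and with the neighbour offset 3 rose. POLR1B, a subunit of RNA polymerase I, rose from 69.7, 68.4 and 66.0 CPM in the control to 109.5, 105 and 103 CPM in sh-B, and NCL (nucleolin) was at 2330.0 and 2683 CPM and did not pass. Of 54 cytosolic ribosomal proteins 4 rose (1 without control 2, control 3 or sh-B 5, 2 without sh-B 3) and 3 fell (1 without control 3, 6 without sh-B 3), or 0 and 3 with the offset.

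Of 44 genes of the G1/S transition and DNA replication 7 rose and 11 fell, or 4 and 5 with the offset, and of 40 genes of G2/M and mitosis 4 rose and 10 fell (6 without control 2), or 2 and 8. RB1, the retinoblastoma protein, fell from 42.7 ± 2.43 to 27.0 ± 2.30 CPM and CCNE2 (cyclin E2) from 38.0 ± 2.35 to 25.6 ± 1.28 CPM, and both passed with the offset. PCNA, RBL1, AURKA and TPX2 on chromosome 20 fell by 0.51, 0.68, 0.44 and 0.64, and with the offset, at -0.11, -0.16, 0.01 and -0.11, none of the 4 passed. NUF2, a kinetochore protein on chromosome 1, fell from 102 ± 8.10 to 52.1 ± 10.6 CPM, and passed with the offset at -0.51. CDKN1A (p21) was at 36.2, 34.0 and 34.3 CPM in the control and 37.0, 31.0 and 32.6 CPM in sh-B and did not pass.

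DNA double-strand break repair, a process in which KAT5 takes part, had few calls, with 3 of 36 genes risen (1 without control 3) and 3 fallen (0 without sh-B 4, 1 without control 1, control 2 or sh-B 5), or 2 and 5 with the offset. The recombinase paralogue RAD51C rose from 44.2 ± 1.81 to 59.6 ± 8.998 CPM, but not without control 3 (log2 difference 0.39). Of 26 apoptosis regulators 5 rose (3 without control 2, sh-B 4 or sh-B 5) and 8 fell (5 without control 1, control 2, control 3 or sh-B 4), or 3 and 5 with the offset. BMF, a BH3-only protein, fell from 7.09 ± 0.442 to 2.92 ± 0.765 CPM and APAF1, the apoptosome scaffold, from 22.6 ± 1.14 to 11.9 ± 1.43 CPM, whereas BCL2L2 rose from 33.6 ± 1.10 to 46.3 ± 4.66 CPM and BAK1 from 17.9 ± 2.07 to 26.6 ± 1.12 CPM. MCL1 on chromosome 1 fell from 247 to 181 CPM and had an offset difference of 0.13, which did not pass.

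**Figure D4:**
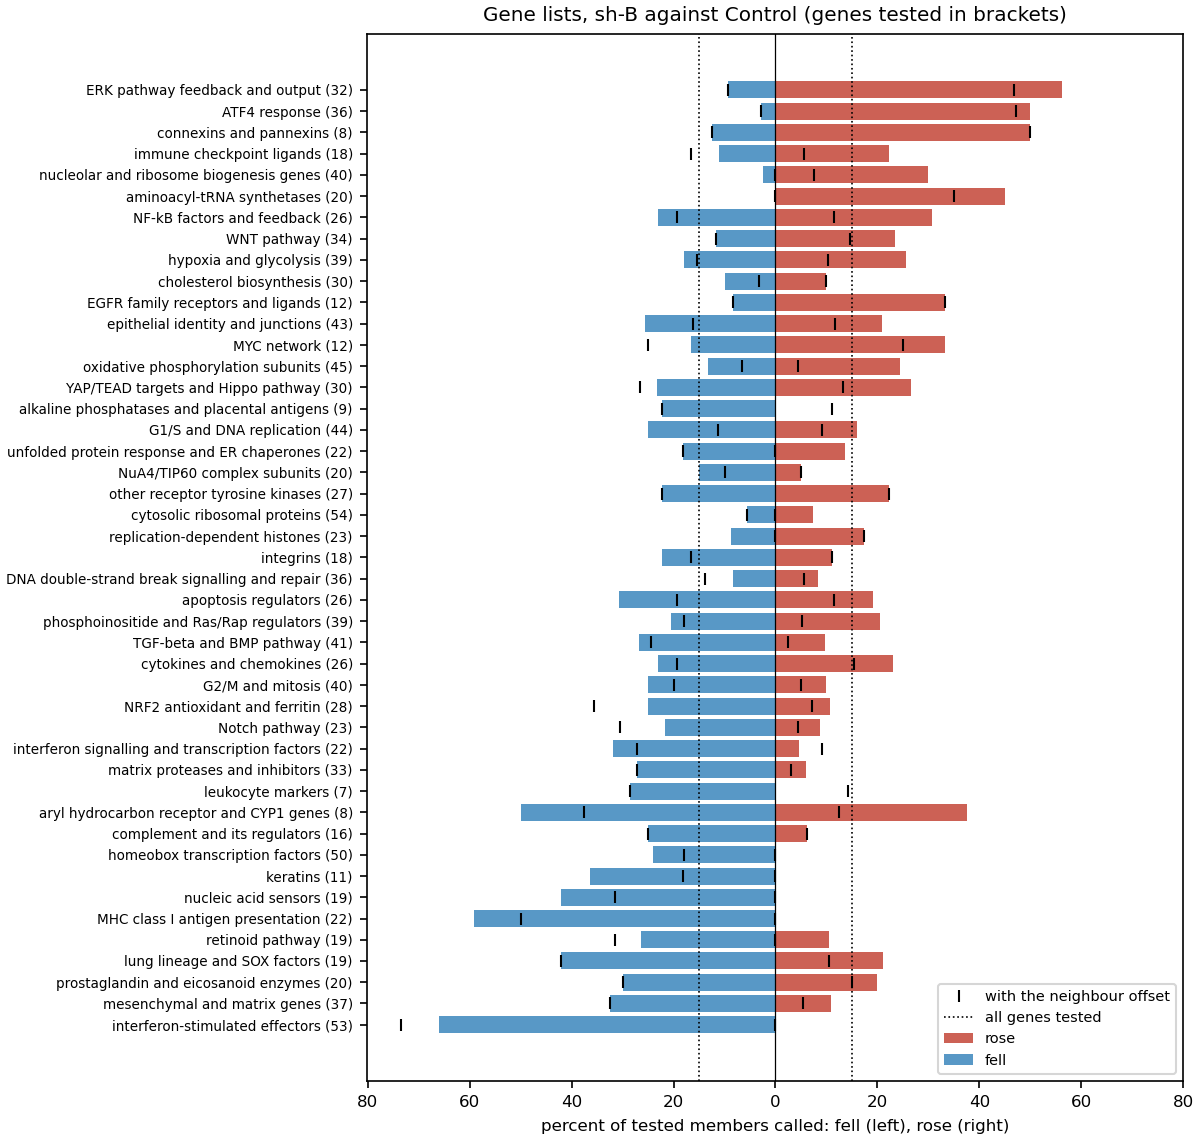
Share of tested members that fell (blue bars, to the left of 0) and rose (red bars, to the right), in percent, for lists with at least 7 tested members, ordered by the list's median log2 difference. Dotted lines mark the 15% of all genes called in each direction and black ticks the share with the neighbour offset; the interferon-stimulated effectors and MHC class I have the longest bars to the left and ERK output the longest to the right, followed by the ATF4 response and the connexins and pannexins.

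Markers of other cell types were mostly at low levels, and their part in the changes above was not tested. Of 10 fibroblast markers 1 was tested, COL1A1, which fell from 23.1 ± 1.74 to 14.3 ± 0.231 CPM, while DCN and THY1 were at 0, and the summed level of the list was between 22.0 and 25.5 CPM in the control and between 14.5 and 15.2 CPM in sh-B. The leukocyte list summed to between 197 and 209.7 CPM in the control and between 96.7 and 111 CPM in sh-B, most of it CD68, a lysosomal protein that tumour cells also express, which fell from 170.1 ± 6.35 to 68.5 ± 11.2 CPM. ITGAM was at 0, and 2 of 7 tested leukocyte markers fell, CD68 among them. Endothelial markers fell in 2 of 5, CDH5 and ESAM, with sums of 9 to 9.50 CPM in the control and 4.20 to 4.80 CPM in sh-B.

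A direct test against sh-C, another hairpin labelled as a knockdown of KAT5 under the same treatment, showed where sh-B differed from it. Of 15592 genes 4344 (27.9%) were called, 2024 higher (13.0%) and 2320 lower (14.9%) in sh-B. At least 2-fold differences numbered 812 (5.21%), with 264 higher (1.69%) and 548 lower (3.51%). KAT5 was at 7.92 CPM in sh-C, below its 13.6 CPM in sh-B (log2 difference of sh-B minus sh-C 0.78, adjusted p = 0.00014 in edgeR). GJA1 was at 50.1 CPM in sh-C, INPP4B at 12.3, IRX5 at 13.6, IL24 at 16.3 and SOX2 at 3.85 CPM, and all 5 were lower in sh-B than in sh-C. VIM was at 268 CPM in sh-C and FN1 at 358 CPM, so that sh-B was 1.46 higher for the first and differed by -1.84 for the second on the log2 scale.

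For the interferon-stimulated effectors 17 of 53 were lower and 4 higher in sh-B than in sh-C. IFI27 was at 12.1 CPM in sh-C and GBP1 at 23.3 CPM, and both were lower in sh-B. STAT2 (24.9 CPM in sh-C, log2 difference -0.20) and IRF9 (17.6 CPM, -0.84, SE 0.432) did not pass this test. The sh-B libraries, at 7.13, 11.1 and 11.36 CPM of IRF9, still lay below those of sh-C, at 17.19, 19.08 and 16.69 CPM. The test takes its spread from all 12 libraries, and IRF9 was at 8.95, 35.65 and 46.98 CPM in sh-A. EGFR was at 231 CPM in sh-C, SPRY4 at 9.21 and ETV5 at 22.1, and all 3 were higher in sh-B. MYC, at 1246 CPM in sh-C, was lower in sh-B by 0.89, although it was above the control in sh-B. Chromosome 20 genes had a median log2 difference of sh-B minus sh-C of -0.58.

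**Figure D5:**
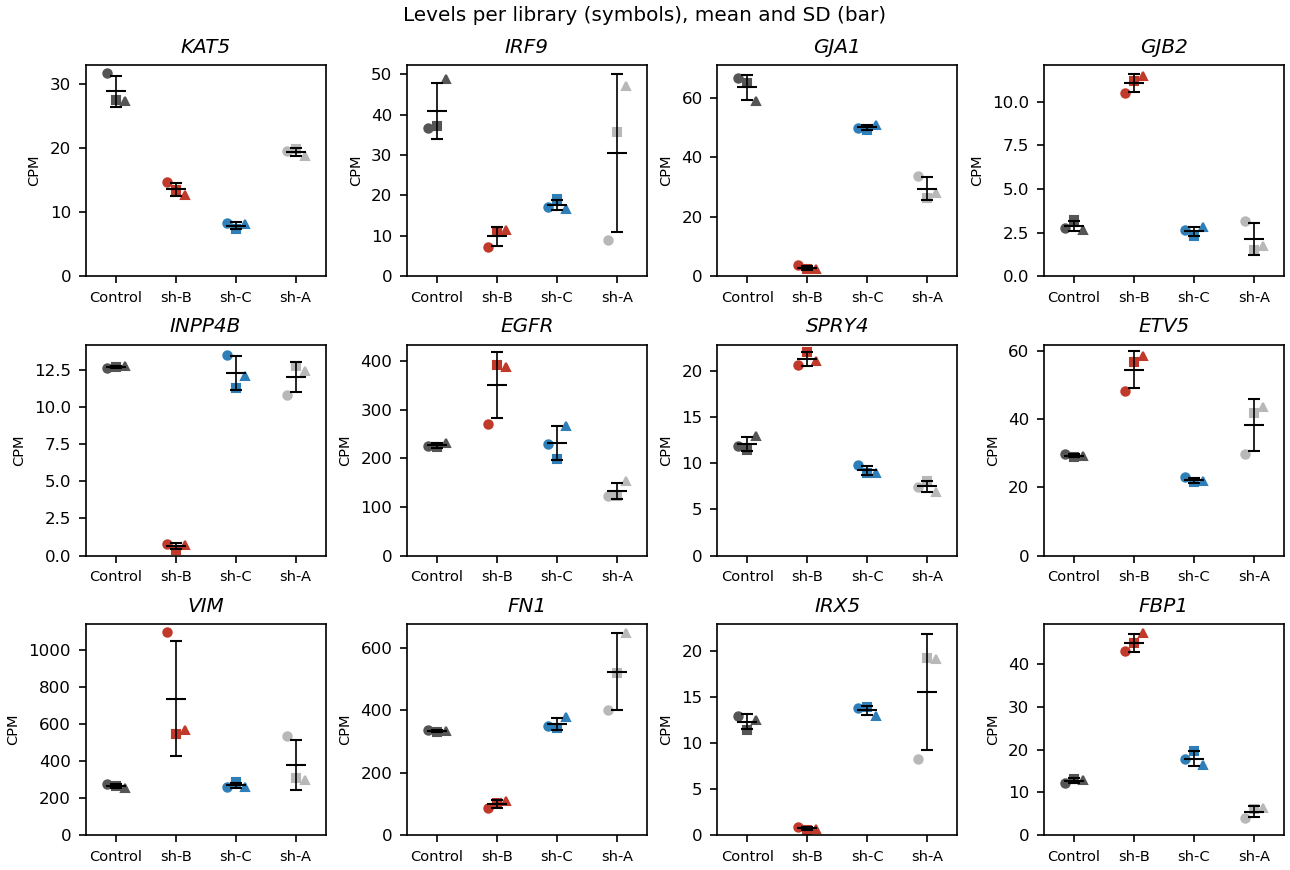
Levels of 12 genes in CPM in every library (symbols), with the mean and SD of each group of 3 (bars), for the control, sh-B, sh-C and sh-A. KAT5 is lowest in sh-C among the first 3 groups, GJA1, INPP4B and IRX5 are near 0 in sh-B alone among the first 3 groups, and VIM, GJB2 and FBP1 are higher in sh-B than in the control and sh-C.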

How the data were processed

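RNA of the H1975 libraries was selected on oligo(dT) beads and copied with random primers, per the labels' protocols. For each library the authors deposited 1 expected count per gene, an estimate that divides ambiguous fragments between genes, and its FPKM, which scales by transcript length and library size. The build was hg19 and the tools HISAT, Bowtie2 and RSEM, per the submitters' processing notes, with versions and settings not given in the sources used. Symbols came from the authors' deposited comparison tables (15620 genes), which also give a log2 ratio per gene, and from RefSeq by gene ID (4734 genes). Chromosome order came from the RefSeq gene table of GRCh38.p14, used for neighbourhood only.

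The expected counts, rounded, went through the default filter of edgeR 4.0.16 in R 4.3.3 (minimum count 10, 15592 genes), scaling by the trimmed mean of M-values and edgeR's quasi-likelihood test, with 1 mean per group over all 12 libraries. P-values were adjusted over all genes by the Benjamini-Hochberg method. The SE is the absolute log2 difference divided by the square root of F. On simulated counts for this comparison over 15592 genes, 76% of 100 genes changed by 1 on the log2 scale and 88.8% of 98 changed by 2 were called. Far fewer genes were changed in the simulation than the 4688 called here, so these shares need not hold for the data. Alternatives were DESeq2 1.42.0, its size factors in edgeR, no filter, a minimum count of 50, only the groups compared, libraries left out, and the neighbour offset added after the values were seen.

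Genes were named by rule: the 15 largest changes each way (called, no overlap, at least 5 CPM in the higher group), the 8 largest changes in CPM each way, the 6 smallest p-values and the most abundant gene of each of 48 gene lists, all connexins, EGFR family and NuA4 genes, and some set genes such as CDH1. Some genes and 1 list that the rule names are not reported here. The comparison, lists and rule were chosen with earlier results of these data known.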

Additional observations from a re-analysis of the deposited data

How the results depend on the processing

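Of 196 named genes that were called, 27 lost the call or changed direction under at least 1 alternative, and none did so with DESeq2, its size factors, either filter or only the groups compared. Without the library of each hairpin group that lay farthest from its group mates (sh-A 3, sh-B 3, sh-C 1) 7388 genes were called against the control (3708 higher, 3680 lower) and 7307 against sh-C (3385 higher, 3922 lower). With the neighbour offset 1356 genes were higher than in the control. Leaving out 1 library gave 3236 to 4299 calls against the control, 1484 to 2094 higher and 1752 to 2205 lower, with 143 to 193 at least 2-fold higher and 650 to 769 at least 2-fold lower. Against sh-C it gave 2918 to 4668 calls, 1316 to 2198 higher and 1602 to 2470 lower. Among the left-out libraries, the lowest count of higher genes against the control, 1484, came without control 3. The cause of these shifts was not tested.

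With the neighbour offset the log2 difference changed sign for ACTL6A (-0.001), AURKA (0.013), ERBB3 (0.004), KRT7 (0.119), MCL1 (0.130), MRGBP (0.151), RELA (-0.033), TRRAP (0.396) and VPS72 (0.038). Without those 3 libraries it changed sign for the uncalled EPRS (-0.033), ERBB2 (0.076), NCL (-0.057) and TRRAP (0.208). With 1 library left out the values ran from -0.037 to 0.147 for EPRS, -0.123 to 0.075 for ERBB2, -0.432 to 0.063 for HBEGF, -0.060 to 0.312 for NCL and -0.166 to 0.206 for TRRAP. Calls were gained by GJC1 with DESeq2, by ERBB3 with only the groups compared, by MET and HSP90B1 with the neighbour offset, by GJC1, MET and HSP90B1 without sh-B 3, and by GJC1, HBEGF, ERBB3, EPGN, KRT7, MET, SIX4, HSP90B1 and CALR without those 3 libraries. No paired analysis was possible because the library numbers of the control run from 1 to 3 and those of sh-B from 3 to 5, so the groups share 1 number. Depth limits the folds of genes with few or no counts in sh-B, such as SOX2 and IRX2.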

Other observations

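The remaining hairpin group, sh-A, is compared with no other group here, though its libraries share in the estimate of spread. In it the genes nearly lost with sh-B were present. INPP4B was at 11.99 ± 1.01 CPM, IRX5 at 15.6 ± 6.29 CPM, SOX2 at 12.4 ± 2.23 CPM and RAPGEF5 at 14.4 ± 2.10 CPM (SD, n = 3). KAT5 was at 19.4 ± 0.626 CPM and GJA1 at 29.4 ± 3.84 CPM. GJB2, at 2.13 ± 0.901 CPM, and FBP1, at 5.51 ± 1.37 CPM, were far from their sh-B levels of 11.1 and 45.0 CPM.

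The shifts of chromosomes 20 and 3 in sh-B were not seen in sh-A, which had others. The median log2 difference from the control mean over the 282 genes of chromosome 20 was 0.03, 0.05 and 0.03 in sh-A 3, 4 and 5, and over the 565 genes of chromosome 3 it was -0.02, -0.11 and -0.10. Over the 568 genes of chromosome 11, whose median was 0.25 with sh-B, it was -0.23, -0.25 and -0.26 in sh-A. The 2 shifts differed in place. In the run from BET1L to RHOD, at 0.36 with sh-B, the sh-A medians were -0.10, -0.15 and -0.17. In a later block, from PAK1 to CEP57, at 0.01 with sh-B, they were -0.33, -0.48 and -0.50.

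For the 46 genes with the largest changes, the log2 ratio in the authors' deposited table and the log2 difference computed here differed by at most 0.27.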
